A study of Mus musculus with 6 samples.

Results

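Smooth muscle contracts through a small set of proteins that few other cell types make in quantity, and 10 genes of that set were followed here through ectopic endometrial lesions of mice. The genes were chosen by name, for their role in smooth muscle: Acta2 (ENSMUSG00000035783.10), Actg2 (ENSMUSG00000059430.15), Myh11 (ENSMUSG00000018830.11), Cnn1 (ENSMUSG00000001349.6), Tagln (ENSMUSG00000032085.6), Des (ENSMUSG00000026208.10), Lmod1 (ENSMUSG00000048096.8), Myocd (ENSMUSG00000020542.19), Synpo2 (ENSMUSG00000050315.15) and Oxtr (ENSMUSG00000049112.10). The choice was made with earlier results of these data known. They are 10 of the 56884 genes in the count table, and all 10 were among the 18177 genes with enough counts to be tested. RNA from 6 lesions was sequenced, with 1 library for each. The 3 control lesions (WT) came from female donors carrying the floxed Dnmt3a allele without Cre (Dnmt3a f/f). The 3 KO lesions came from female donors with the same floxed allele and Cre driven by the progesterone receptor gene (Dnmt3a f/f:PR-Cre/+). The comparison asks which transcripts differ in a lesion whose donor tissue lost Dnmt3a, a DNA methyltransferase that sets new methylation.

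Per the methods, donors of both groups were 8 weeks old and had been injected with estradiol, and recipients were syngeneic C57BL/6J females, also 8 weeks old, with an estradiol pellet. Host cells that enter a lesion therefore keep Dnmt3a, and Cre acts only in donor cells that express the progesterone receptor, which include uterine smooth muscle. According to the sample labels, pieces of uterine horn were placed in the peritoneal cavity and lesions were taken after 4 weeks. The methods give 3 donors per genotype for the sequenced lesions and describe an endometrial fragment of 2 mm sutured to the mesenteric membrane of each recipient, and collection on day 21. By that account each lesion is from a donor of its own. How much of the muscle wall of the uterus a fragment contained is not stated in either source. Each lesion was sequenced whole, so more smooth muscle cells and more RNA per smooth muscle cell cannot be told apart in any value below.

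In smooth muscle, actin filaments slide along filaments of smooth muscle myosin when calcium activates the myosin light chain kinase, and the filaments pull on dense bodies linked by desmin. The genes for these proteins share a switch: serum response factor binds CArG boxes near them, and its coactivator myocardin turns it toward contractile genes. The uterus is known for its thick coat of such muscle, the myometrium, and smooth muscle around glands and stroma is also a known part of endometriotic tissue.

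The stretch of DNA around a start site shows what each gene offers to a methyltransferase, which acts on the letters CG. RefSeq promoters of mouse build GRCm38.p6, running from 250 bases before to 50 bases after the start of the gene, were found for 6 of the 10 genes. Printed here, on the strand of the gene from 5′ to 3′ with each CG in capitals, are those of Acta2 (chr19:34255324-34255623, minus strand), the most abundant member, of Cnn1 (chr9:22099003-22099302, plus strand) and Lmod1 (chr1:135324563-135324862, plus strand), which were higher in every KO lesion, and of Oxtr (chr6:112489776-112490075, minus strand), which has the most CG.
Acta2: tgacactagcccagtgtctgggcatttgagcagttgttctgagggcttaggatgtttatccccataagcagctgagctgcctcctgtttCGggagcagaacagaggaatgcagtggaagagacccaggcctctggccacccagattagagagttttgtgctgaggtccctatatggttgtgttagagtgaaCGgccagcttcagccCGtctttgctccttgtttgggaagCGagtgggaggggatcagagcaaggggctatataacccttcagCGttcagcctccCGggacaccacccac
Cnn1: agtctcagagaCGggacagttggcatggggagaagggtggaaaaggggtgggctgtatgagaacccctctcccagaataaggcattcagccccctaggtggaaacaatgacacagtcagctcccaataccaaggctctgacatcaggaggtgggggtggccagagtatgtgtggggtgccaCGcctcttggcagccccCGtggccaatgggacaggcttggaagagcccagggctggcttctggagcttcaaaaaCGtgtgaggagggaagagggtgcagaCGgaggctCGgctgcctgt
Lmod1: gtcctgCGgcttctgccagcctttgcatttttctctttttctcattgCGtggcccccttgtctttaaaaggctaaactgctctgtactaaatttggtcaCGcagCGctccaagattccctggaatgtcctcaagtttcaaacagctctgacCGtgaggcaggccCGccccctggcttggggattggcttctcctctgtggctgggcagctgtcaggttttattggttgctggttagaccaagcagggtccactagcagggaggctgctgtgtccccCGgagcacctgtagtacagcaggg
Oxtr: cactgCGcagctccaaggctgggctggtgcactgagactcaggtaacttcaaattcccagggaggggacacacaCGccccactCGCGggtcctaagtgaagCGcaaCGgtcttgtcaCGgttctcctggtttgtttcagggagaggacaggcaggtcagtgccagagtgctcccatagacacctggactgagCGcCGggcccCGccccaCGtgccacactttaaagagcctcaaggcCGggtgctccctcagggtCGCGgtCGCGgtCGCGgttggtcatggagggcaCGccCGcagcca
The promoters of Acta2 and Cnn1 held 6 CG each and that of Lmod1 held 7. Those of Des, Synpo2 and Oxtr held 11, 17 and 20. Over all 32851 promoters of the table the median was 7, with quartiles of 3 and 20. Acta2, Cnn1 and Lmod1 thus lay at about the middle, Des and Synpo2 above it and Oxtr at the upper quartile. The CArG box in its strict form, searched on both strands, was in none of the 6 windows and in 1.63% of all promoters. A CArG-like form, with a C or G at 1 of its 6 inner letters, was looked for after the strict form gave no match. It was in 8.50% of all promoters and in 1 of the 6, that of Acta2, where CCCTATATGG began 84 bases and CCTTGTTTGG 34 bases before the start site. No methylation was measured in these libraries.

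Libraries held 45370342 to 57239184 counts in genes, and levels are given as CPM, counts relative to the size of the library after TMM scaling. Dnmt3a itself was at 52.7, 43.9 and 51.7 CPM in WT lesions 1, 2 and 3 and at 30.3, 33.5 and 36.2 CPM in KO lesions 1, 2 and 3, lower in every KO lesion with transcripts still present (log2 fold change -0.57 ± 0.14 SE, Benjamini-Hochberg adjusted p = 0.321, quasi-likelihood test of edgeR). Libraries of the WT group stood apart from each other. The 15 genes of a skeletal muscle list, among them Acta1, Ckm and Atp2a1, took 3.88% and 4.09% of the counts in WT lesions 1 and 3. In WT lesion 2 their share was 0.00111%, and in the KO lesions it was 0.00145% to 0.00185%. Of these 15 genes, 12 were tested and all 12 were called lower in KO. Myh4, Tnnc2 and Pvalb, with counts almost only in WT lesions 1 and 3, did not enter the test. In WT lesion 2 the summed level of 8 macrophage and neutrophil genes was 11025 CPM, against 420 to 1154 CPM in the other 5 lesions. Member values are therefore also given against WT lesion 2 alone, a choice made after seeing the data. Since this lesion is also the lowest of all 6 for 9 of the 10 members, the choice itself fixes their upward direction, and these values are a description with no test.

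A gene was called when its unadjusted p was under 0.05 and its log2 fold change, KO over WT, was above 1 or below -1. By this rule 3 of the 10 members rose in KO lesions, Actg2, Cnn1 and Myocd, a share to be read against 3.10% of all tested genes called higher. None of the 10 was called lower by the test of edgeR or had an unadjusted p under 0.05 in that direction, against 5.85% of all genes called lower and 8.16% lower at that p alone, while DESeq2 and limma voom each called 1 lower, Des. At an unadjusted p under 0.05 alone, 5 members were higher (6.55% of all genes): Actg2, Myh11, Cnn1, Lmod1 and Myocd. The same 5 lay higher in every KO lesion than in every WT lesion, as did 10.7% of all genes. No member had an adjusted p under 0.05 in edgeR, where 1 gene of the whole table did, and 4 members had one with DESeq2, at 0.00748 for Actg2, 0.000886 for Myh11, 0.0379 for Cnn1 and 0.000362 for Myocd. The median log2 fold change was 0.85 over the members and 0.014 over all tested genes. Of the 10 estimates, 8 were above 0, and those of Des and Synpo2 were below it. The spread inside a group ran the same way for most members, since WT lesion 2 was the lowest of all 6 lesions for 9 of them and KO lesion 2 the lowest KO lesion for all 10.

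**Figure D1:**
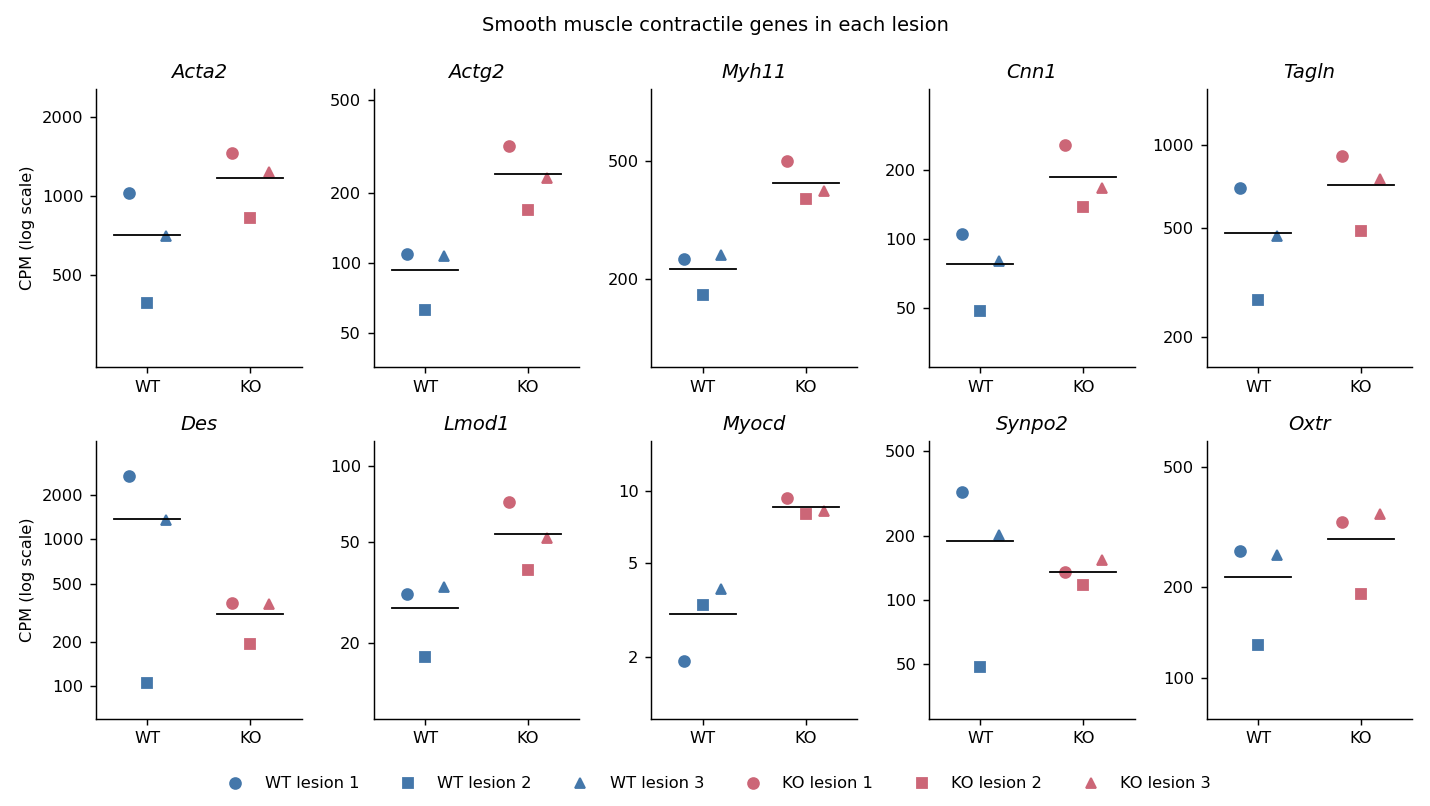
CPM of each member (log scale, a range of its own for each gene) in the 3 WT and 3 KO lesions; each point is 1 lesion, its shape gives the lesion number and the line the group mean. Actg2, Myh11, Cnn1, Lmod1 and Myocd have no KO lesion as low as any WT lesion, whereas WT lesion 1 is the highest of all 6 for Des (2675 CPM) and Synpo2 (322 CPM).

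Compared per length of their exons, as RPKM, the members covered a wide range. The mean over the 6 lesions was 427 RPKM for Acta2, 300.3 for Tagln, 225 for Des, 107 for Actg2, 52.7 for Oxtr, 48.5 for Cnn1, 42.1 for Myh11, 12.4 for Synpo2, 10.3 for Lmod1 and 0.90 for Myocd. The ranges over lesions of neighbours in this order overlapped in every case except the last, where Lmod1 ranged from 4.48 to 18.2 RPKM and Myocd from 0.299 to 1.46 RPKM. Within each of the 6 lesions Acta2 lay above Tagln, and in 4 of the 6 Tagln lay above Des. WT lesions 1 and 3 were the exceptions, with 713 and 362 RPKM of Des, above their 466 and 321 RPKM of Acta2. The order of the means was the same with the highest lesion of each gene left out, but the place of Des rests on both WT lesions 1 and 3. In WT lesion 2 and KO lesions 1, 2 and 3, Des was at 28.1, 98.7, 51.9 and 96.4 RPKM. Actg2 lay above it in each of these, at 40.0, 204, 108 and 148 RPKM.

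Myocd, the coactivator that turns serum response factor toward contractile genes, was the rarest member and had the highest fold change. Its level was 1.92, 3.31 and 3.89 CPM in WT lesions 1, 2 and 3 and 9.35, 8.03 and 8.25 CPM in KO lesions 1, 2 and 3, from 90 to 533 counts per library. All KO lesions lay close together and above all WT lesions. WT lesions averaged 3.04 ± 1.01 CPM (SD, n = 3), and KO lesions 8.54 ± 0.709 CPM (SD, n = 3). Myocd rose by 1.49 ± 0.31 (SE) on the log2 scale (unadjusted p = 0.00274, adjusted p = 0.321, edgeR's quasi-likelihood test). With only WT lesion 2 in the WT group the log2 fold change was 1.35. Serum response factor itself, Srf, was at 31.8 to 37.4 CPM in the 3 WT lesions and 26.0 to 34.7 CPM in KO lesions and was not called.

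Both smooth muscle actins were measured. Actg2, the gamma actin of gut and uterine muscle, was at 109, 62.3 and 107 CPM in WT lesions 1, 2 and 3 and at 318, 169 and 231 CPM in KO lesions 1, 2 and 3. The lowest KO lesion stood above the highest WT lesion. Group means were 92.7 ± 26.4 CPM (SD, n = 3) and 239 ± 74.9 CPM (SD, n = 3), 2.58-fold higher in KO, and Actg2 rose by 1.37 ± 0.32 on the log2 scale (unadjusted p = 0.00545, adjusted p = 0.321, edgeR). Acta2, the alpha actin of vessels and also of myofibroblasts, was at 1023, 388 and 705 CPM in the 3 WT lesions and 1460, 819 and 1231 CPM in KO lesions. Its groups overlapped, since WT lesion 1 was above KO lesion 2. The log2 fold change was 0.73 ± 0.41 (unadjusted p = 0.125, adjusted p = 0.417, edgeR), and Acta2 was called higher without WT lesion 1 (log2 fold change 1.10). With WT lesion 2 alone the value was 1.57. No stretch of 50 bases in the transcripts of either actin was shared with Acta1, the skeletal muscle actin.

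Myh11, the heavy chain of smooth muscle myosin, was at 233, 177 and 241 CPM in WT lesions 1, 2 and 3 and at 499, 373 and 396 CPM in KO lesions 1, 2 and 3. The groups were separate, and the WT lesions lay close together. Its log2 fold change of 0.96 ± 0.20 had one of the smallest p-values among the members (unadjusted p = 0.00294, adjusted p = 0.321, edgeR) and fell just short of the fold threshold. The same gene passed that threshold without WT lesion 1, WT lesion 3, KO lesion 2 or KO lesion 3, at 1.01 to 1.05.

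Cnn1, calponin, binds actin and slows the myosin motor. It was at 106, 48.5 and 80.4 CPM in WT lesions 1, 2 and 3 and at 257, 138 and 167 CPM in KO lesions 1, 2 and 3. Every KO lesion was above every WT lesion, and Cnn1 rose by 1.26 ± 0.36 on the log2 scale (unadjusted p = 0.0131, adjusted p = 0.321, edgeR). Without KO lesion 1, the highest of the 6, the value was 0.97 and the call was lost. Lmod1, leiomodin, which starts actin filaments in smooth muscle, was at 31.3, 17.7 and 33.4 CPM in the 3 WT lesions and 71.8, 38.7 and 51.8 CPM in KO lesions. It was higher in every KO lesion, with a log2 fold change of 0.98 ± 0.33 (unadjusted p = 0.0250, adjusted p = 0.328, edgeR), under the fold threshold with all 6 lesions. It was called without WT lesion 1, WT lesion 3 or KO lesion 2 (1.08 to 1.17), and without KO lesion 3 it was above the fold threshold alone (1.01, unadjusted p = 0.0517). Without KO lesion 1 the value of Lmod1 was 0.72, with p no longer under 0.05 (unadjusted p = 0.0807, edgeR). Tagln, transgelin, which cross-links actin, was at 696, 272 and 465 CPM in the 3 WT lesions and 911, 487 and 751 CPM in KO lesions. WT lesion 1 was again above KO lesion 2, and the log2 fold change was 0.58 ± 0.40 (unadjusted p = 0.199, adjusted p = 0.494, edgeR). Exons of Tagln overlap those of Pcsk7 (1385 to 2376 counts) and Gm48529 (144 to 279 counts) on the opposite strand, and whether strand was used in counting is not given in the sources used here.

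Oxtr, the oxytocin receptor, makes uterine muscle contract when the hormone binds. It was at 263, 128 and 255 CPM in WT lesions 1, 2 and 3 and at 328, 189 and 350 CPM in KO lesions 1, 2 and 3. KO lesion 2 lay below WT lesions 1 and 3, so the groups overlapped. The log2 fold change was 0.42 ± 0.36 (unadjusted p = 0.289, adjusted p = 0.580, edgeR). With WT lesion 2 alone it was 1.16, the lowest value of any member there.

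Des and Synpo2 differed from the other members in where they were high. Des codes for desmin, the intermediate filament of all muscle, and was at 2675, 106 and 1357 CPM in WT lesions 1, 2 and 3 and at 371, 195 and 362 CPM in KO lesions 1, 2 and 3. WT lesions 1 and 3 lay above every KO lesion and WT lesion 2 below every KO lesion. The log2 fold change was -2.16 ± 1.02 (unadjusted p = 0.0797, adjusted p = 0.368, edgeR). Synpo2, which codes for an actin-binding protein of the Z-disc and of dense bodies, was at 322, 48.2 and 201 CPM in the 3 WT lesions and 136, 117 and 153 CPM in KO lesions. It had the same order, with the KO lesions between WT lesion 2 and WT lesions 1 and 3, and a log2 fold change of -0.49 ± 0.62 (unadjusted p = 0.462, adjusted p = 0.711, edgeR). An exon of Des overlaps Gm15179 (0 to 234 counts) on the opposite strand.

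Skeletal muscle makes desmin and synaptopodin 2 as well, and not Myh11, so the ratio to Myh11 was taken in each library. Des over Myh11 was 11.5 and 5.64 in WT lesions 1 and 3, the libraries with skeletal muscle transcripts. It was 0.597 in WT lesion 2 and 0.743, 0.522 and 0.914 in KO lesions 1, 2 and 3. Synpo2 over Myh11 was 1.38 and 0.834 in WT lesions 1 and 3, 0.272 in WT lesion 2, and 0.272, 0.315 and 0.388 in the KO lesions. In both ratios WT lesion 2 lay within or at the edge of the KO range, and the other WT lesions lay above it. With only WT lesion 2 in the WT group the log2 fold change was 1.53 for Des and 1.47 for Synpo2, which restates that this lesion lay below every KO lesion for both genes. The call rule was then met by 9 of the 10 members, all but Oxtr, and by 3.15% of all genes in that direction, with 8.04% lower and 4.28% higher at p alone. The median of the members was 1.50. Their direction follows from the choice of the lesion lowest for 9 of them. The count of members meeting the rule is therefore no test. Set beside the share of all genes, it cannot be read as an enrichment. The WT group is then a single lesion, assumed to vary like the KO lesions, and it is the lesion with the high neutrophil and macrophage transcripts, whose part in the result was not tested.

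**Figure D2:**
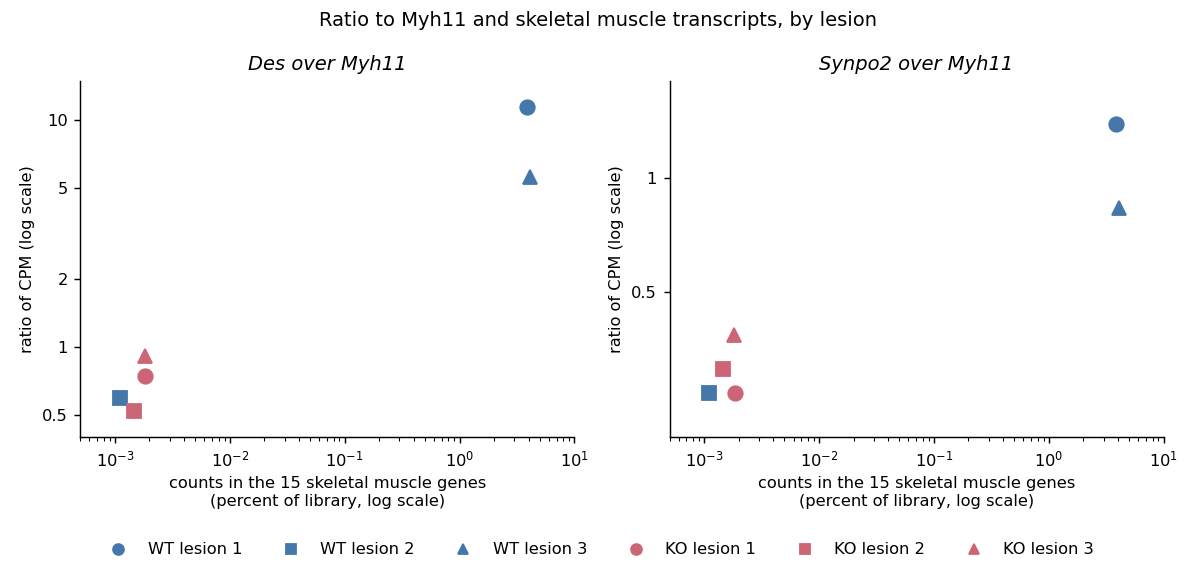
Ratio of Des (left) and Synpo2 (right) CPM to Myh11 CPM in each lesion (log scale) against the percent of the library's counts in 15 skeletal muscle genes (log scale). WT lesions 1 and 3, at 3.88% and 4.09%, have the highest ratios, and WT lesion 2 and the KO lesions lie together at the lower left.

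**Figure D3:**
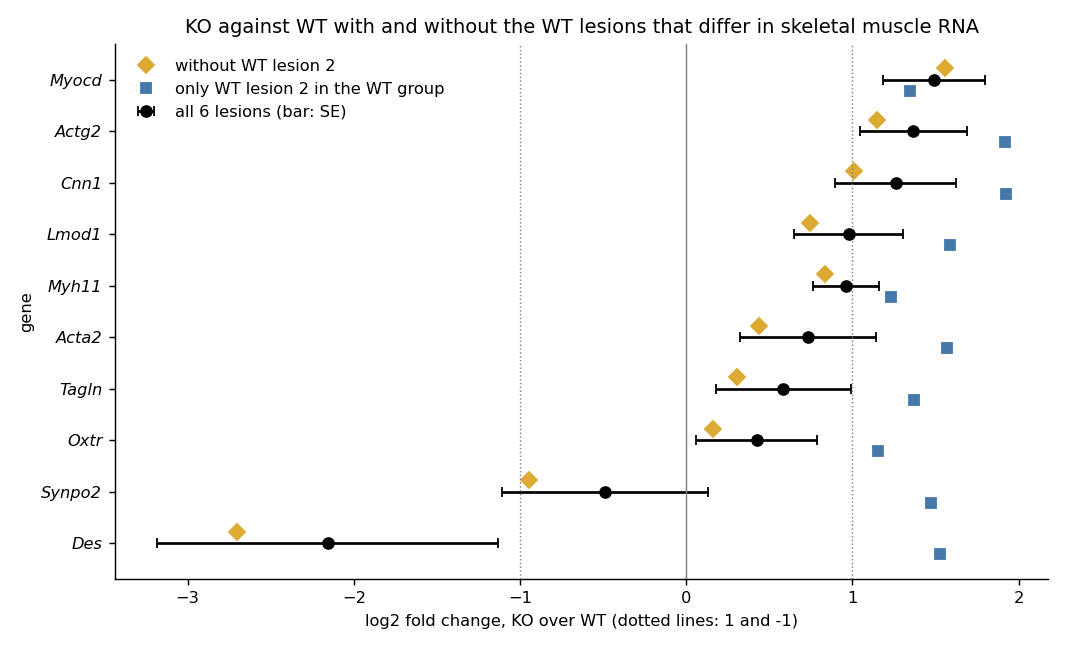
log2 fold change of each member, KO over WT: black points and bars give the estimate and SE from all 6 lesions, diamonds the fit without WT lesion 2 and squares the fit with only WT lesion 2 in the WT group. Des moves from -2.70 without WT lesion 2 to 1.53 with it alone, while Myocd stays between 1.35 and 1.56.

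To compare the members with each other inside a lesion, the other 9 were set against Acta2. On the log2 scale Actg2 over Acta2 was -3.23, -2.64 and -2.73 in WT lesions 1, 2 and 3 and -2.20, -2.28 and -2.42 in KO lesions 1, 2 and 3. Every KO lesion was above every WT lesion, by 0.57 between the means. Cnn1 over Acta2 was also separate, higher by 0.48 in KO, and Tagln over Acta2 was separate in the other direction, at -0.16. Each of these 3 had p = 0.1 in an exact two-sided permutation test, the smallest that 3 lesions against 3 allow, and an adjusted p of 0.3 over the 9 ratios, so none passed a threshold of 0.05. The groups overlapped for the other 6, with differences of 0.16 for Myh11, 0.19 for Lmod1, 0.75 for Myocd, -0.35 for Oxtr, -0.91 for Synpo2 and -2.09 for Des. WT lesion 1 carried the lowest ratio of Actg2, Myh11, Cnn1, Lmod1 and Myocd to Acta2. Without it, the difference of Myh11 was -0.0998, that of Lmod1 -0.0136 and that of Myocd 0.13, and without WT lesion 2 that of Myocd was 1.22.

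**Figure D4:**
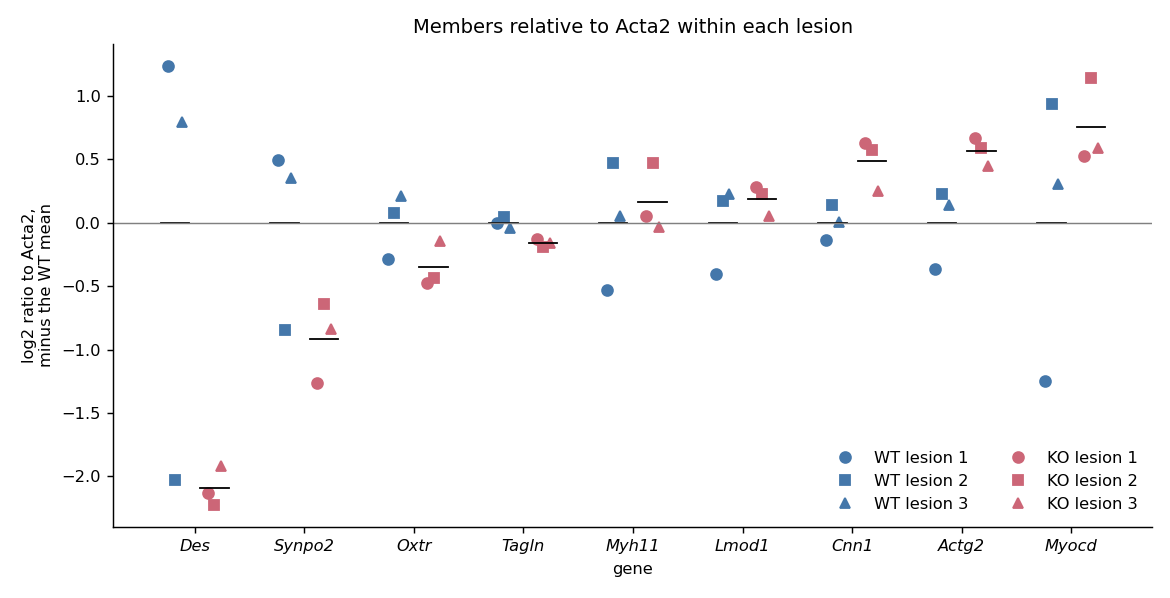
log2 ratio of each member to Acta2 in each lesion, shown minus the WT mean of that gene; points are lesions and lines are group means. KO lesions lie above all WT lesions for Cnn1 and Actg2 and below them for Tagln, while Des and Synpo2 split the WT group, with WT lesion 2 among the KO lesions for Synpo2 and Des.

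Other genes of the contractile machinery, taken from a list of 25 that holds no member, did not share one direction: 1 was called higher, 2 were called lower, 6 were higher and 2 lower at an unadjusted p under 0.05, and the median log2 fold change was -0.29. Over all tested genes, 3.10% were called higher and 5.85% lower, and 6.55% were higher and 8.16% lower at that p alone. The same shares apply to the lists below. Ppp1r14a, an inhibitor of the phosphatase that ends contraction, rose by 1.20. Sgca, a muscle membrane protein, was at 36.7, 0.360 and 26.7 CPM in WT lesions 1, 2 and 3 and at 0.159 to 0.544 CPM in KO lesions (log2 fold change -5.72). Synm, a partner of desmin in intermediate filaments, had a log2 fold change of -2.74. Both genes were high only in the WT lesions with skeletal muscle transcripts, and with WT lesion 2 alone their values were 0.13 and 0.75. A few more are named after their values were seen. Mylk, the kinase that starts contraction, was at 188 to 274 CPM in the 3 WT lesions and 365 to 527 CPM in KO lesions. Its log2 fold change was 0.84 (unadjusted p = 0.0106, edgeR). The tropomyosins Tpm1 and Tpm2, shared with skeletal muscle, had values of -1.92 and -2.18 and were not called (unadjusted p = 0.0664 and 0.0758, edgeR). In WT lesion 2 they were at 239 and 102 CPM, below every KO lesion (349 to 608 and 218 to 437 CPM). WT lesion 2 had the lowest summed level of this list, 4301 CPM against 5379 to 10965 CPM in the other lesions.

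Among 21 tested receptors and channels of contraction, 2 were called higher, 0 lower, 3 were higher and 1 lower at an unadjusted p under 0.05, and the median was 0.02. Kcnmb1, the smooth muscle subunit of the calcium-activated potassium channel, was at 8.71, 7.38 and 14.8 CPM in WT lesions 1, 2 and 3 and at 31.5, 35.9 and 26.2 CPM in KO lesions 1, 2 and 3. It rose by 1.60 on the log2 scale (unadjusted p = 0.00185, adjusted p = 0.321, edgeR), and its groups were separate. Kcnma1, the pore of the same channel, was the gene lower at that p, at 32.4, 16.4 and 34.0 CPM in WT lesions 1, 2 and 3 and 12.5 to 17.3 CPM in KO lesions (log2 fold change -0.82, unadjusted p = 0.0404), and its groups overlapped. It is named after its values were seen. Cacna1h, a calcium channel, rose by 1.12. Of 11 regulators of smooth muscle transcription, 0 were called higher and 1 lower, with a median of -0.23. The lower one was Mef2c, also a factor of skeletal muscle, at 580, 45.8 and 333 CPM in the 3 WT lesions and 29.5 to 46.1 CPM in KO lesions. Other isoforms of the members held 12 tested genes with 4 called lower, Acta1, Actc1, Lmod3 and Synpo2l, all isoforms of striated muscle, and 0 higher. Non-muscle isoforms such as Actb, Actg1, Cnn2, Cnn3 and Tagln2 overlapped between groups.

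**Figure D5:**
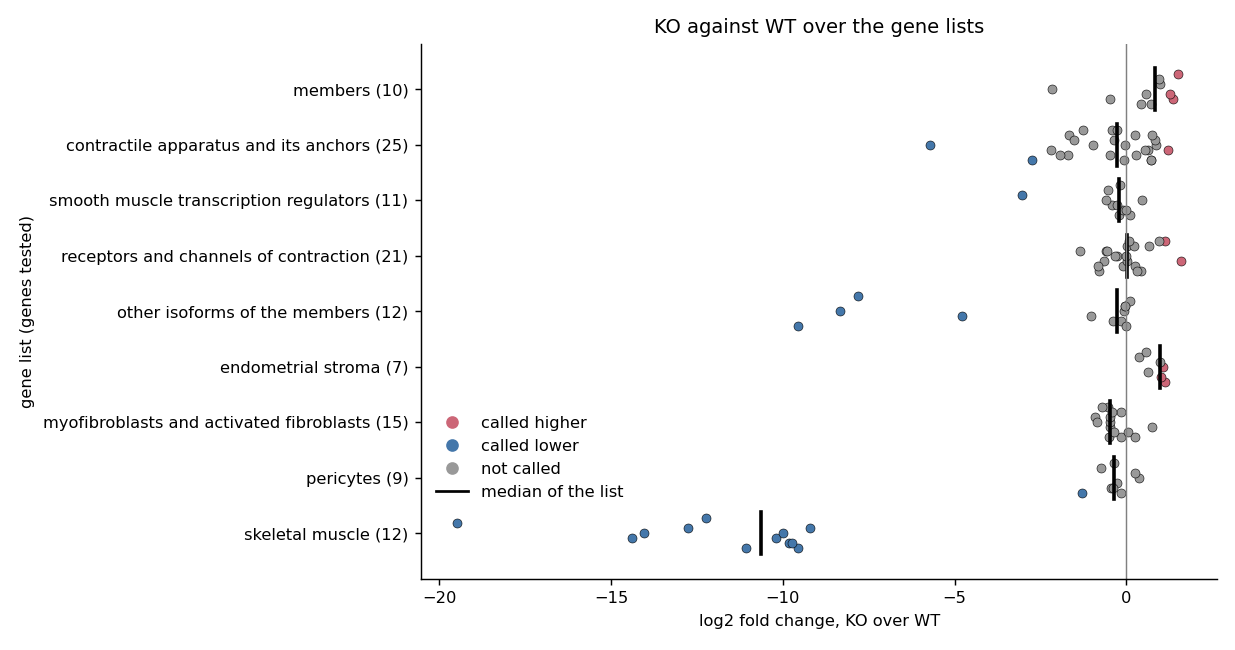
log2 fold change, KO over WT, of each tested gene of the gene lists; the number of genes is in brackets, red and blue points are genes called higher and lower, and the vertical line is the median of the list. The median of the members is 0.85 and that of the endometrial stroma 0.97, and the genes farthest to the left are those of skeletal muscle.

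Other cell types could carry some of these transcripts. Myofibroblasts and pericytes make Acta2 and Tagln, and none of 15 myofibroblast genes was called (median -0.46, summed level 15547 to 17891 CPM in the 3 WT lesions and 5136 to 20899 CPM in KO lesions). Of 9 pericyte genes, 0 were called higher and 1 lower, Abcc9, with a median of -0.36 and summed levels of 465 to 525 CPM in the 3 WT lesions and 240 to 571 CPM in KO lesions. The gut wall, which has smooth muscle of its own, was checked with 10 genes. Elavl4, Fabp2 and Cdx1 were at 0.135 CPM or less in every lesion, and Reg3b reached 83.3 CPM in WT lesion 3 alone. Ano1 (16.5 to 80.1 CPM), Kit (16.5 to 54.0 CPM) and Ret (17.1 to 52.0 CPM) were present in every lesion and were not called. Of the 5 tested, 0 were called higher and 1 lower, Lgals4, and the summed level was 82.4 to 175 CPM in the 3 WT lesions and 83.2 to 180 CPM in KO lesions. Of the 8 macrophage and neutrophil genes, 0 were called higher and 3 lower, with a median of -1.08. No gene was called among 8 of endometrial epithelium, 7 of endothelium, 6 of adipocytes and 6 of mesothelium. The median was 0.54 for endometrial epithelium, where 7 of the 8 estimates were above 0. It was -0.46 for endothelium, 0.34 for adipocytes and -0.21 for mesothelium.

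Of 7 genes of endometrial stroma, 3 were called higher, Hand2 (1.02), Hoxa11 (1.05) and Esr1 (1.13), 0 were called lower, and the median was 0.97. Their summed level was 294 to 501 CPM in the 3 WT lesions and 480 to 807 CPM in KO lesions. Over all tested genes, 3.10% were called higher and 5.85% lower. The Hox genes of this list are markers of uterine position that myometrium also expresses. After these values were seen, each member was therefore set against the mean of Hoxa10, Hoxa11 and Hoxd10 on the log2 scale. The groups then overlapped for all 10 members. The difference was 0.67 for Myocd, 0.49 for Actg2, 0.41 for Cnn1, 0.11 for Lmod1 and 0.09 for Myh11, and it was below 0 for the other 5, at -0.08 for Acta2, -0.24 for Tagln, -0.43 for Oxtr, -0.99 for Synpo2 and -2.17 for Des, with adjusted p from 0.667 to 1 over the 10 ratios (exact permutation tests). The part that the amount of uterine tissue in a lesion has in the member values was not tested further.

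Outside the members, the 5 genes whose pattern over the 6 lesions was closest to the members' mean pattern were Ptgdr2, Myl9, Mmp17, Csrp1 and Akr1c14. Their root mean square differences were 0.0958, 0.147, 0.159, 0.170 and 0.171 on the log2 scale. Myl9 is the regulatory light chain of smooth muscle myosin and was at 346, 138 and 300 CPM in the 3 WT lesions and 631, 329 and 460 CPM in KO lesions. Among the members, Acta2 (0.131), Tagln (0.140) and Oxtr (0.191) followed their common pattern most closely. Synpo2 (0.582), Myocd (0.777) and Des (1.40) were farthest from it. WT lesion 1, slightly above the middle of the common pattern, was the lowest library for Myocd.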

How the data were processed

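Raw counts of reads per gene, deposited by the authors for 6 libraries of stranded mRNA, were analysed. Per the labels and the methods, reads were trimmed (Trimmomatic) and counted (featureCounts). The labels give build GRCm39 and the methods GRCm38, and the aligner is not given in the sources used here. Symbols were found for 51948 of the 56884 identifiers in GENCODE M21, which also gave exon lengths for RPKM; genes without a symbol held 3.04% to 3.56% of the counts. Lesions were grouped by the genotype in the labels.

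Counts were kept by filterByExpr, scaled by TMM and fitted with the quasi-likelihood test of edgeR 4.0.16 (R 4.3.3), genotype being the only term. Adjusted p-values are Benjamini-Hochberg values over all 18177 tested genes, SE is the log2 fold change divided by the root of F, and a call needs an unadjusted p under 0.05 and a log2 fold change beyond 1. Single values were compared by exact two-sided permutation tests. Counting intervals would cover counting error only, so the spread between lesions was used. The steps were tested on simulated data.

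The members and lists were chosen with earlier results of these data known. Named were every member, up to 4 called genes per list by p, list markers at 0, the 5 genes of at least 10 CPM closest to the members' mean pattern, and Dnmt3a. Alternatives were DESeq2's size factors, upper quartile scaling, scaling without the skeletal muscle list, 2 other filters (any count, or no library under 10 counts), the Wald test of DESeq2 1.42.0, limma 3.58.1 voom with quality weights, a replicate block and each lesion left out. WT lesion 2 alone, the ratio to Hox genes and the CArG-like motif were added after seeing the data.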

Additional observations from a re-analysis of the deposited data

How the results depend on the processing

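With 3 lesions a group, 1 library moves most counts. With each lesion left out in turn, 2 to 6 members were called higher and 0 to 1 lower, against 3 and 0 with all, and over all genes 280 to 1021 were called higher and 551 to 1650 lower, against 564 and 1064. Fewest members were called higher without KO lesion 1 and most without WT lesion 1, and the 1 called lower was Des without WT lesion 2. Upper quartile scaling, which moves the median of all genes to 0.11, gave 5 members called higher. DESeq2 and voom each called 1 member lower, Des, voom called 855 genes higher, and keeping every gene with a count gave 1652 genes lower. The cause was not tested.

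With only WT lesion 2 in the WT group, 9 members were called higher, 9 were higher at an unadjusted p under 0.05, the median was 1.50, and of all 20215 genes tested 636 (3.15%) were called higher and 1625 (8.04%) lower. This lesion is the lowest of all 6 for 9 members, which fixes their direction, so the comparison is no check of it. The spread of the WT group cannot be measured from a single lesion. The counts of calls in this comparison are therefore a description and no test. Among the members and the called genes named from the lists, values that turned there were Des (1.53), Synpo2 (1.47), Sgca (0.13), Synm (0.75), Synpo2l (0.0918), Lmod3 (2.02) and Acta1 (3.14). Tpm1 and Tpm2, which were not called, also had WT lesion 2 below every KO lesion. With each lesion left out, Synpo2 ranged from -0.94 to 0.12, the last without WT lesion 1, and the log2 ratio to Acta2 from -0.0998 to 0.40 for Myh11 and from -0.0136 to 0.30 for Lmod1.

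Over all tested genes, same-numbered WT and KO lesions did not deviate together (correlations 0.055, -0.161 and -0.234). With 3 lesions a group these values cannot exclude a pairing. For the members, WT lesion 2 was the lowest WT lesion for 9 and KO lesion 2 the lowest KO lesion for all 10. A fit with the replicate block called 3 members higher and 0 lower, and 372 genes higher and 573 lower. At an unadjusted p under 0.05 alone it had 7 members higher, against 5 without the block. Those added were Acta2 (unadjusted p = 0.0326) and Tagln (unadjusted p = 0.0448, both edgeR). Over the 14 alternatives other than WT lesion 2 alone, the log2 fold change of Actg2 lay between 1.11 and 1.57 and that of Myocd between 1.25 and 1.68, with adjusted p from 0.00748 to 0.668 and from 0.000362 to 0.668. Depth limits no member, the rarest being Myocd.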
